A study of Mus musculus with 10 samples.

Results

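The motile axoneme and kinocilium genes are 74 of the 32285 genes counted in each library. They were taken by symbol alone, as every gene whose name begins with Dnah, Cfap, Rsph, Tekt or Drc and a number, or with Dnali or Dnaic, together with Ccdc39, Ccdc40, Hydin, Spag6, Spag16 and Spag17. The rule uses no measured value, though it was written with earlier results of these data known. The data are single-cell RNA-seq counts from the cochlea and vestibule of wild-type CBA/J mice aged 22 months, with 7 to 8 male and female mice pooled per biological replicate, whole organs microdissected and dissociated with collagenase IV. Of the 5 libraries per organ, replicate 2 repeated replicate 1 (below), so replicates 1, 3, 4 and 5 were used, and each n is a number of pooled libraries. No treatment was applied, no genotype was altered, and libraries from young mice were not analysed here, so nothing below is a change with age.

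The axoneme is the microtubule core of a cilium, built of outer doublets to which outer and inner dynein arms, radial spokes and the nexin-dynein regulatory complex attach along a repeat whose length is set by the Ccdc39 and Ccdc40 ruler proteins. In a motile cilium the spokes meet a central apparatus, and filaments and small proteins line the inside of the doublets. A hair cell (HC) carries a kinocilium, a true cilium that stands at the tall edge of its stereocilia bundle. Vestibular HCs keep it for life, whereas cochlear HCs of the mouse lose it as hearing matures.

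After filtering, 10424 vestibular and 7272 cochlear cells were clustered without the members or other cilia genes among the variable genes, and clusters were named from other markers. This gave 1495 type I and 282 type II vestibular HCs (vHCs) and 75 inner and 76 outer cochlear HCs (cHCs). The names stand for type I-like, type II-like, inner-like and outer-like clusters. All sub-clusters held 5 or 6 of the 6 general HC markers, whereas type I sub-clusters held 2 or 3 of 4 type I markers and the 2 type II sub-clusters held 4 and 2 of 4 type II markers. The smallest type I (64 cells) and type II (63 cells) sub-clusters were ties, each with 2 markers of both types, so the split into types rests on few genes and they are left out in an alternative fit below. Adam11, a type I marker, had a UMI in 92.2% of type I and 5.32% of type II cells, and Sox2, a type II and supporting cell marker, in 1.40% and 78.7%. Levels are given as CPM, the UMIs of a gene in every 1000000 UMIs of that cell class in that library, listed in the order replicates 1, 3, 4 and 5. The 3′ counts take 1 UMI per captured molecule and were not divided by transcript length, so levels are compared between cells within a gene and not between genes. Replicate 1 held no inner HC, which leaves 3 libraries for that type. Clusters of 503 vestibular and 71 cochlear HCs that also carried genes of other classes were left out as mixed.

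Library depth set how far each class could be read. The 4 vestibular and 4 cochlear libraries held 4150642 to 24104850 and 2738036 to 26974948 UMIs, and replicate 3 was the deepest in both organs. Type I cells held 6008176 UMIs in all and type II cells 1422499, against 533944 in inner and 229037 in outer HCs. A member with no UMI is therefore bounded at 0.499 CPM in type I, 2.11 CPM in type II, 5.62 CPM in inner and 13.1 CPM in outer HCs, the level of 3 counts over the class. These limits and all Poisson or binomial intervals below cover counting error only. In replicate 2, 1313 of 1313 cochlear and 1633 of 1641 vestibular barcodes were also in replicate 1, whereas other pairs of libraries shared at most 41, and the counts of the pair differed by less than the sampling noise.

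The members are dispersed over the genome. Ccdc39 is at chr3:33812362-33844310 on the minus strand and Ccdc40 at chr11:119228572-119265238 on the plus strand (GRCm38, GENCODE M21). Promoter windows from RefSeq (GRCm38.p6, 250 bases before to 50 after the start) were matched for 62 of the 74 members. RFX and FOXJ1 proteins are the transcription factors best known for ciliary genes, and RFX proteins bind an X-box, an inverted repeat of GTTGCC-like arms. Letter patterns were searched on both strands and overlapping matches were kept, so longer patterns include shorter ones. GTTGCTA was found in 24 of 62 members against 4.28% of all 27025 genes with a promoter, GTTGCC in 23 against 14.1%, and a gapped X-box, in which both arms are only partly fixed, in 16 against 5.26%. The forkhead pattern GTAAACA was found in 4 members against 4.05%, and GTTGCCATG in 3 against 0.877%. Of the 3 stricter X-box forms of both arms, each in under 1% of genes, the looser pair matched Cfap298 alone among members and the strictest matched none. These are matches of letters and not shown binding sites, and Dnah7a, Dnah7b and Dnah7c share sequence and are not separate cases.

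The promoters of the 4 members with the largest differences between type I and type II cells, 2 in each direction, are shown because these genes carry the contrast described further on. Letters matching the first 3 patterns above on either strand are in capitals. Cfap45 (higher in type II, chr1:172520880-172521179, plus strand) holds GTTGCTA inside the gapped form, and Cfap161 (higher in type I, chr7:83794790-83795089, minus strand) holds GTTGCC at 3 places, read on the opposite strand. None of the 3 patterns is in the window of Cfap52 (higher in type II, chr11:67965593-67965892, minus strand) or Dnah8 (higher in type I, chr17:30626686-30626985, plus strand).
Cfap45: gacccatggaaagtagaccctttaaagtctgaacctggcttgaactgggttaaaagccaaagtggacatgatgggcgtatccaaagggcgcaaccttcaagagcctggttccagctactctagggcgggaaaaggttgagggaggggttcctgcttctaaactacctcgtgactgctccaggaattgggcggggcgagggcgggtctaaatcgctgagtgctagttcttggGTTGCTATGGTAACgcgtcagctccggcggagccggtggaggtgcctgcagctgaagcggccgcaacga
Cfap52: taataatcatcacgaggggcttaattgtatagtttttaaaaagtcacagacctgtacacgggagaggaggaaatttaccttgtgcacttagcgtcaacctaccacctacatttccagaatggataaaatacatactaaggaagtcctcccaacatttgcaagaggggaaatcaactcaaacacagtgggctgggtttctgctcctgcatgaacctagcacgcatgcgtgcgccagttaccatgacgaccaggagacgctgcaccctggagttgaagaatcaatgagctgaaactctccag
Dnah8: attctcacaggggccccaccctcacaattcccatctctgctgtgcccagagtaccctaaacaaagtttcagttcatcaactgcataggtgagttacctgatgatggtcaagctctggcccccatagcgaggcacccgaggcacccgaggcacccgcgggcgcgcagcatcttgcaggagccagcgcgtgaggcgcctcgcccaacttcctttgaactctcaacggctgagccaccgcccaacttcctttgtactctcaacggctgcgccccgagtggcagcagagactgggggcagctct
Cfap161: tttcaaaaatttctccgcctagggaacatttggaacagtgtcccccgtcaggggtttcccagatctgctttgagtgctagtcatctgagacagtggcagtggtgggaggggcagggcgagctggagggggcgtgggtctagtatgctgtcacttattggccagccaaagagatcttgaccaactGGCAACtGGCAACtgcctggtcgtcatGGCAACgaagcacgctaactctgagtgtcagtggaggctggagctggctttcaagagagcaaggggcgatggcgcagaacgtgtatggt

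vHCs of both types transcribed most of the axoneme, and cHCs transcribed little of it. The summed level of the 74 members was 8626, 7679, 8147 and 8211 CPM in type I cells and 8144, 7099, 6958 and 6973 CPM in type II cells. It was 956, 889 and 632 CPM in inner HCs of replicates 3, 4 and 5, and 492, 455, 1094 and 509 CPM in outer HCs. The inner sums mix sub-clusters. In replicate 3, a sub-cluster of 17 cells and 45093 UMIs was at 2595 CPM, and the other, of 34 cells, at 732 CPM. In replicate 5 they were at 812 CPM (14 cells) and 534 CPM (4 cells), and in replicate 4 the first held 1 cell. Vestibular and cochlear libraries did not overlap. In cHCs, 5 members that every class transcribed (Cfap20, Cfap36, Cfap97, Cfap298 and Cfap410) held 310 of the 606 UMIs of all members. These ran from 15.01 to 36.9 CPM even in vestibular macrophages, which bear no kinocilium. The highest sum in outer HCs was that of replicate 4, whose outer HCs held 27422 UMIs, the fewest of the 4. At 10 CPM or more over the pooled UMIs were 56 of 74 members in type I, 56 in type II, 15 in inner and 9 in outer HCs, against 18 in vestibular and 7 in cochlear supporting cells and 5 in macrophages of either organ. This cut lies below the 13.1 CPM limit of a member with no UMI in outer HCs, so their count also depends on depth. Shares of all genes at the cut were not computed. The heat map of members by class shows the split.

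**Figure D1:**
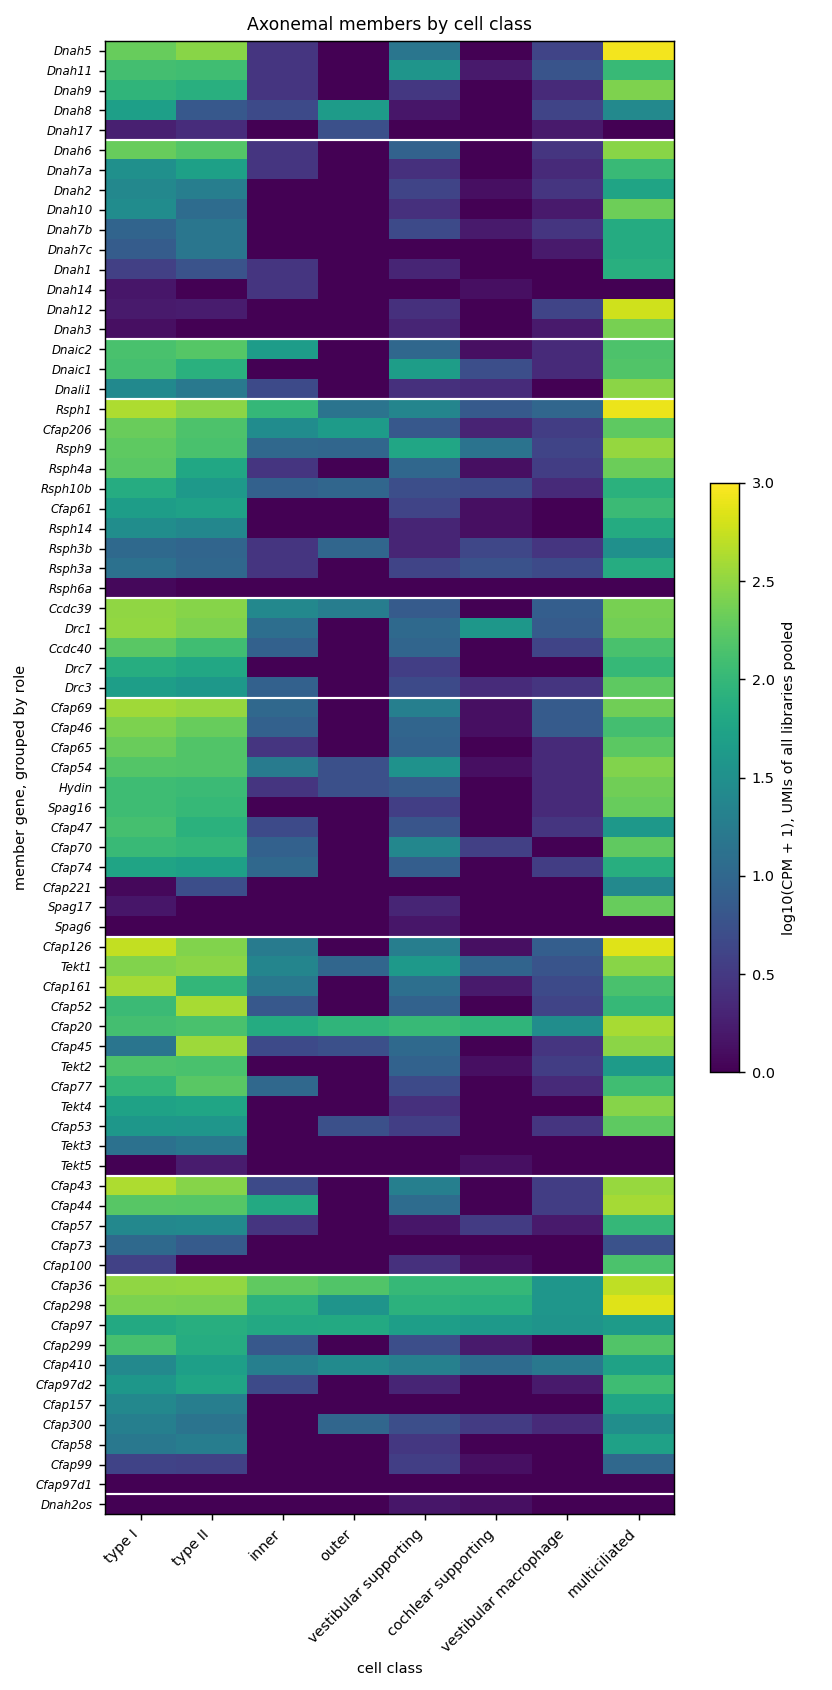
Level of each of the 74 members (rows, grouped by role and separated by white lines) in 8 cell classes (columns), as log10(CPM + 1) over the pooled UMIs of all libraries. Type I, type II and multiciliated columns are bright in nearly every role group, while inner, outer, supporting and macrophage columns are mostly dark. Exceptions are broadly transcribed members such as Cfap20, Cfap36 and Cfap298, and others in single columns. Among these are Rsph1 and Cfap44 (inner), Dnah8 and Cfap206 (outer), and Rsph9 and Dnaic1 (vestibular supporting).

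The first comparison set vHCs against cHCs, summing UMIs per library (n = 4 against 4). The cHC sums mix inner and outer HCs in uneven shares, with outer HCs alone in replicate 1. Of 7651 genes tested with edgeR's quasi-likelihood test, 29.7% were called at an adjusted p under 0.05, 17.7% higher and 12% lower in vHCs. Of the 74 members, 52 passed the filter on low counts, 49 were called higher and 0 lower. Here 46 of the 52 passed only through their level in vHCs and so had to differ. This count, the role counts below and the p-values of such members are given as descriptions. With no filter, 57 of 71 members with any UMI were higher and 0 lower, against 11.2% of all genes higher. Every vestibular library was above every cochlear one for 21.1% of all genes tested and for 49 members. Members not called were Cfap97 (-0.01 ± 0.26, adjusted p = 0.99), Cfap410 (0.47 ± 0.39, adjusted p = 0.41) and Dnah8 (1.24 ± 0.47, adjusted p = 0.052), given as log2 differences, vHC minus cHC, with their SE.

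Ccdc39 and Ccdc40, the ruler that positions dynein arms and spokes, were at 347, 299.6, 324 and 345 CPM (type I) and 294, 288, 231 and 316 CPM (type II) for Ccdc39 and 179, 145, 215 and 165 CPM (type I) and 185, 89.03, 139 and 132 CPM (type II) for Ccdc40. In inner HCs Ccdc39 was at 23.96, 38.7 and 12.4 CPM in replicates 3, 4 and 5, and in outer HCs at 13.7, 24.6, 0 and 21.2 CPM. Every vHC library was thus above every cHC library for Ccdc39, and in outer HCs Ccdc40 had no UMI. Between vHCs and cHCs the log2 difference was 3.79 ± 0.29, adjusted p = 2.8e-09 for Ccdc39 and 4.92 ± 0.46, adjusted p = 3.0e-08 for Ccdc40. A Ccdc39 UMI was present in 65.1% of type I cells (exact binomial interval 62.6 to 67.5%), 62.1% of type II, 14.7% of inner and 5.26% of outer HCs, against 2.20% of vestibular and 0.258% of cochlear macrophages, whose shares stand for the free RNA of their organ. The median depth was 3963, 4687.5, 5480, 2612, 2925 and 2401 UMIs per cell in these 6 classes. With every cell thinned to 1000 UMIs the shares were 28.7%, 21.6%, 2.67%, 3.95%, 0.551% and 0%. Of the nexin-dynein regulatory complex, which links neighbouring doublets, Drc1 was at 329, 309, 341 and 352 CPM (type I) and 192, 266, 293 and 276 CPM (type II). Drc7 was at 67.9, 71.7, 88.5 and 54.9 CPM (type I) and 70.3, 63.8, 69.7 and 43.8 CPM (type II), with 0 UMIs in cHCs, so that it was at least 17.8-fold higher in vHCs against the 3-count limit.

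Of the outer arm heavy chains, the motors that drive beat frequency, Dnah5, Dnah9 and Dnah11 were called higher in vHCs. Dnah5 was at 236, 199, 189.7 and 197 CPM (type I) and 358, 283, 194 and 348 CPM (type II), Dnah11 at 108, 109, 141 and 163 CPM (type I) and 179, 114, 117 and 100.2 CPM (type II) and Dnah9 at 78.7, 85.5, 109 and 90.9 CPM (type I) and 159.7, 66.8, 55.02 and 78.3 CPM (type II). Each had 1 UMI in all cHCs, and their log2 differences from cHCs were 7.23 ± 0.52, adjusted p = 9.6e-10 for Dnah5, 6.43 ± 0.56, adjusted p = 1.0e-08 for Dnah11 and 5.93 ± 0.57, adjusted p = 4.6e-08 for Dnah9. Dnah8, an outer arm heavy chain known from sperm, was the one tested outer arm chain not called higher in vHCs. It was at 33.96, 49.8, 38.99 and 65.3 CPM (type I) and 0, 5.94, 3.67 and 9.39 CPM (type II), but had 10 UMIs in outer HCs (0, 36.9, 146 and 63.6 CPM by library) and 2 in inner HCs. Pooled, that was 43.7 CPM in outer HCs (Poisson interval 20.9 to 80.3) and 3.75 CPM in inner HCs (0.454 to 13.5). A Dnah8 UMI was in 11.8% of outer HCs and 0.258% of cochlear macrophages. Dnah17, the other sperm-type chain, stayed at or under 6.39 CPM in every vestibular library.

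Inner arm heavy chains shape the bend of a beating cilium, and only part of the set was present. Dnah6 was at 245, 165, 217 and 251 CPM (type I) and 224, 141, 150.4 and 166 CPM (type II), Dnah7a at 27.8, 31.6, 35.2 and 26.5 CPM (type I) and 63.9, 43.03, 66.02 and 40.7 CPM (type II) and Dnah2 at 29.3, 20.5, 26.99 and 29.3 CPM (type I) and 25.6, 13.4, 22.01 and 21.9 CPM (type II). Dnah10, which pairs with Dnah2 in the same arm, was at 29.3, 24.9, 32.2 and 29.3 CPM (type I) and 12.8, 5.94, 18.3 and 12.5 CPM (type II). The 4 were called higher in vHCs than in cHCs (17.7% of all genes were), with log2 differences of 4.55 to 7.68. Dnah2 and Dnah10 had no UMI in any cHC, and fitted values against a group at 0 are no bounds. Dnah7b and Dnah7c are near-identical to Dnah7a, and reads shared among them may be split or lost, so their levels are uncertain. Dnah2os, which the rule takes by its name, is an opposite-strand transcript of Dnah2 and not a dynein, and had 0 UMIs in type I and 0 in type II cells. Dnah1, Dnah3, Dnah12 and Dnah14 were scarce, with pooled levels in type I cells of 2.66, 0.333, 0.666 and 0.499 CPM. The intermediate chains that hold the outer arm heavy chains together were present. Dnaic1 was at 105, 116, 170.2 and 127 CPM (type I) and 70.3, 81.6, 77.03 and 78.3 CPM (type II) with 0 UMIs in cHCs, and Dnaic2 at 168, 135, 133 and 115 CPM (type I) and 262, 154, 183 and 113 CPM (type II). The light intermediate chain Dnali1, found with inner arms, was at 32.4, 24.9, 27.7 and 21.8 CPM (type I) and 19.2, 17.8, 7.34 and 15.7 CPM (type II).

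Radial spoke genes were measured at every part of the spoke. Rsph1, a head protein, was at 449, 399, 467 and 444 CPM (type I) and 370.5, 272, 326 and 288 CPM (type II), and Rsph9, also of the head, at 148, 181, 219 and 152 CPM (type I) and 102, 132, 161 and 141 CPM (type II). Rsph4a, the scaffold of the head, was at 193, 169, 158 and 171 CPM (type I) and 102, 62.3, 47.7 and 46.97 CPM (type II). Cfap206, an adaptor at the base of a spoke, was at 224, 198, 219.7 and 195 CPM (type I) and 153, 125, 165 and 157 CPM (type II). All 7 spoke members that passed the filter were called higher in vHCs (17.7% of all genes were), by log2 differences of 2.55 to 8.63. Rsph6a, a testis paralog of Rsph4a, had 1 UMI in all HCs. Rsph10b overlaps exons of Pms2 on the same strand in the annotation, and its counts are uncertain for that reason, as are those of Cfap43 (Itprip) and Cfap299 (a lncRNA), and those of the paralogs Rsph3a and Rsph3b.

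The central apparatus is the pair of microtubules and projections in the middle of a beating cilium. Cfap69 was at 337, 347, 389 and 464 CPM (type I) and 307, 310.1, 345 and 388 CPM (type II), Cfap46 at 262, 239, 257 and 288 CPM (type I) and 185, 205, 154 and 232 CPM (type II) and Cfap65 at 321, 177, 204 and 212 CPM (type I) and 319, 147, 88.03 and 138 CPM (type II). Cfap54 was at 147, 157, 163 and 163 CPM (type I) and 147, 168, 139 and 141 CPM (type II), and Spag16 at 92.6, 109, 121 and 136 CPM (type I) and 76.7, 87.5, 114 and 138 CPM (type II) with 0 UMIs in cHCs. Of the 12 members in this group 9 passed the filter and were called higher in vHCs (17.7% of all genes were), Hydin among them (5.32 ± 0.50, adjusted p = 3.0e-08). The other 3 were nearly missing. Spag17, which builds a projection of the central pair, had 3 UMIs in all vHCs (0.404 CPM), Cfap221 had 7 and Spag6 had 0, which allows up to 0.404 CPM. Its close paralog Spag6l, outside the naming rule, was at 216 ± 44.3 CPM (type I) and 194 ± 22.1 CPM (type II; SD, n = 4).

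Inside the doublets, tektins form filaments and other small proteins bind the inner wall. Tekt1 was at 295, 263, 277 and 275 CPM (type I) and 326, 299.7, 286 and 288 CPM (type II). Tekt2 was at 149.7, 155, 144 and 111 CPM (type I) and 134, 141, 176 and 93.9 CPM (type II) and Tekt4 at 74.1, 56.9, 45.7 and 38.8 CPM (type I) and 89.4, 50.4, 55.02 and 56.4 CPM (type II), both with 0 UMIs in cHCs. Against the 3-count limit Tekt2 was at least 36.3-fold, Dnaic1 at least 30.3-fold, Spag16 at least 28.6-fold and Tekt4 at least 13.7-fold higher in vHCs. Cfap43 and Cfap44, which tether an inner arm to the doublet, were at 491, 424, 395 and 432 CPM (type I) and 415, 276, 264 and 241 CPM (type II) for Cfap43 and 196, 152, 172 and 167 CPM (type I) and 141, 154, 165 and 175 CPM (type II) for Cfap44. Cfap57, an adaptor of inner arms, was at 32.4, 21.5, 29.99 and 19.9 CPM (type I) and 12.8, 22.3, 18.3 and 46.97 CPM (type II). Cfap73, which works with Cfap100 in fixing an inner arm, was at 3.09, 9.09, 12.7 and 11.4 CPM (type I) and 6.39, 2.97, 11.004 and 9.39 CPM (type II). Cfap157, a basal body protein of motile cilia, was at 41.7, 21.9, 20.2 and 23.7 CPM (type I) and 12.8, 23.7, 11.004 and 15.7 CPM (type II).

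**Figure D2:**
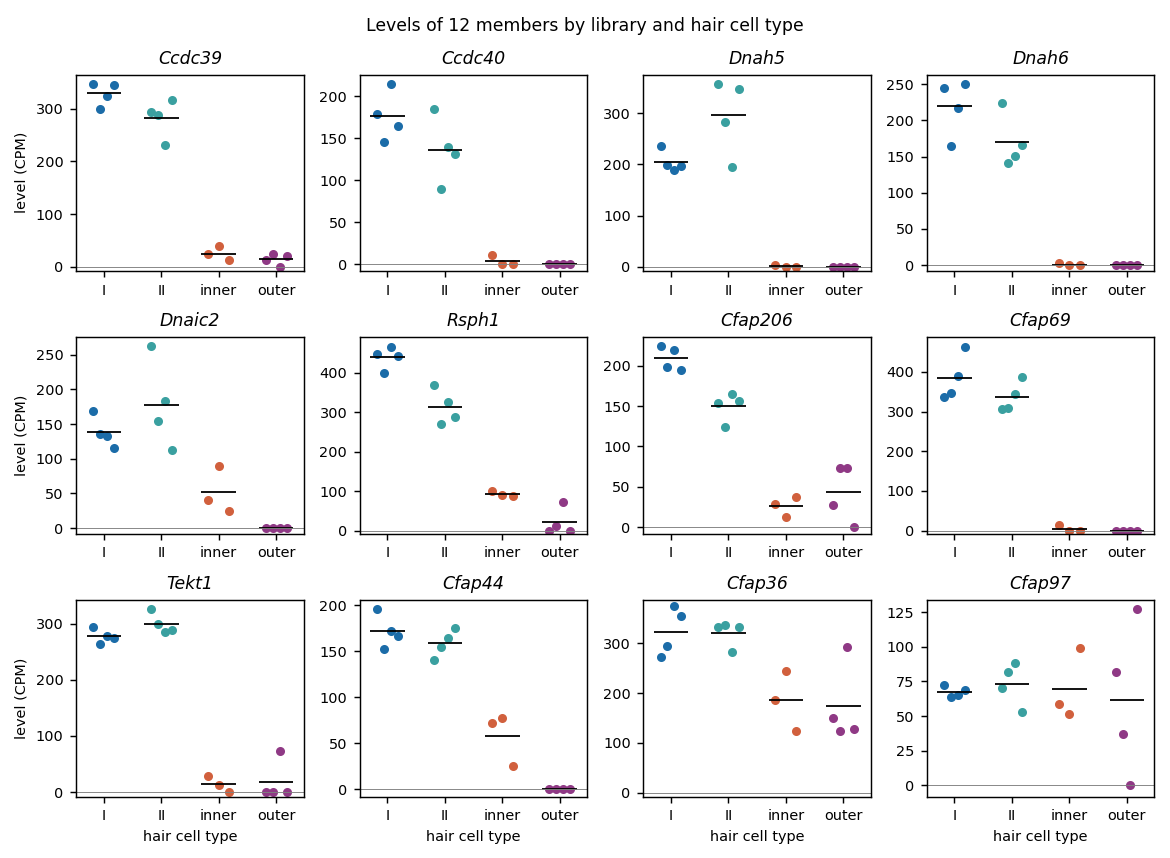
Levels of 12 members in CPM by hair cell type (I, II, inner, outer), with 1 point per library and a black line at the mean (4 libraries per type, 3 for inner). Type I and type II points sit far above inner and outer points for Ccdc39, Ccdc40, Dnah5, Dnah6, Cfap69 and Tekt1, while Cfap97 overlaps between all 4 types and Cfap44, Dnaic2 and Rsph1 have a low level in inner HCs.

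Some Cfap genes outside these groups were transcribed in every HC type. Cfap36 was at 272, 294, 374 and 354 CPM (type I) and 332, 337, 282 and 332 CPM (type II), and still at 186, 245 and 124 CPM in inner HCs of replicates 3, 4 and 5 and 150.3, 123, 292 and 127 CPM in outer HCs. Its log2 difference between vHCs and cHCs was 0.83 ± 0.23, adjusted p = 0.0085, and the call was lost under the 10% mitochondrial limit (0.53, edgeR adjusted p = 0.14) and without cochlear replicate 5 (0.71). Cfap298 was at 211, 256, 279.7 and 266 CPM (type I) and 198, 254, 289.8 and 225 CPM (type II), and Cfap97 at 72.6, 63.97, 65.2 and 69.1 CPM (type I) and 70.3, 81.6, 88.03 and 53.2 CPM (type II). For Cfap97 the libraries of all 4 HC types overlapped. Cfap299 was at 140.5, 115, 145 and 170.4 CPM (type I) and 63.9, 66.8, 106 and 56.4 CPM (type II), and Cfap410 at 33.96, 22.9, 29.99 and 17.99 CPM (type I) and 95.8, 40.1, 44.01 and 43.8 CPM (type II).

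Among cHCs, Cfap44, Dnaic2 and Rsph1 were higher in inner than in outer HCs in a fit without a count filter, and Dnah8 was lower, all with few counts. Cfap44 had 35 UMIs in inner HCs (71.9, 77.3 and 24.8 CPM in replicates 3, 4 and 5) and 0 in outer HCs. Dnaic2 had 24 (39.9, 90.2 and 24.8 CPM) against 0, and Rsph1 had 52 (101, 90.2 and 86.7 CPM) against 3. The Poisson interval was 45.7 to 91.2 CPM for Cfap44 in inner HCs, and 0 UMIs in outer HCs allowed up to 13.1 CPM. A Cfap44 UMI was in 28.0% of inner HCs (18.2 to 39.6%) and in 0 of 76 outer HCs, which allows a share of up to 3.95%, and in 0% of cochlear macrophages. At 1000 UMIs per cell the share in inner HCs was 1.33%, near that of 1 UMI. Cfap44 was also among the leading genes of an inner sub-cluster, so it helped to describe those cells, though it was not used to cluster them. The tested comparison of inner with outer HCs (n = 3 against 4) kept 1515 genes, of which 32.7% were called, and only 1 member, Cfap36, passed its filter (0.17 ± 0.35, adjusted p = 0.75, log2 difference inner minus outer). With no filter, where 6.13% of genes were called, edgeR's quasi-likelihood test called Dnaic2 (5.43, adjusted p = 0.0028), Cfap44 (5.87, adjusted p = 2.1e-04) and Rsph1 (2.96, adjusted p = 0.001) higher in inner HCs and Dnah8 lower (-3.01, adjusted p = 0.047). Fitted values against a group at 0 depend on the prior count and are no bounds. Cfap206 had 15 UMIs in inner and 10 in outer HCs, pooled 28.1 (15.7 to 46.3) and 43.7 CPM (20.9 to 80.3).

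The second tested question was whether type I and type II cells differ in their axoneme. Type I cells have a calyx ending around them and type II cells have bouton endings, and both bear a kinocilium. Of 8047 genes tested over 4 libraries per type, 17.5% were called, 8% higher and 9.51% lower in type I. Of 53 members that passed the filter, 13 were higher and 4 lower in type I, and the median log2 difference over them was 0.28 against 0.01 over all genes. The filter level was reached in all type II libraries by 45 of them, including 1, Cfap45, that reached it through type II only. Another 7 reached it through type I only, Dnah8 and Dnah10 among them. Tests of members that reached it in 1 type only are given as descriptions. The types come from the same libraries, and with the library as a block 18 members were higher and 7 lower, where 11.8% of all genes were higher and 13.4% lower. The members added by the block were Ccdc40, Cfap65, Dnah6, Drc1 and Rsph9 (higher in type I) and Cfap97d2, Dnah5 and Dnah7a (lower). The count depended on which cells and libraries entered, being 41 higher and 2 lower of 55 tested with the mixed clusters kept (11.9% and 17% of all genes), 7 and 2 of 35 tested with cells thinned to 1000 UMIs (8.32% and 7.44%), and 7 and 2 of 51 tested without replicate 3 (5.42% and 6.57%). Without the 2 sub-clusters tied on markers, 16 were higher and 4 lower of 52 tested (7.5% and 8.81%), a fit chosen after the data were seen.

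Cfap45, a protein of the doublet lumen, separated the types most. It was at 20.1, 13.5, 11.996 and 12.3 CPM (type I) and 262, 389, 389 and 313 CPM (type II), with no overlap (over all genes tested, the libraries of the types were apart for 7.94% higher and 11.7% lower in type I), for a mean of 14.5 ± 3.79 CPM against 338 ± 62.1 CPM (SD, n = 4). That was 23.6-fold lower in type I (log2 difference type I minus type II -4.56 ± 0.20, adjusted p = 1.2e-13). Cfap45 passed the count filter only through type II, so this p-value and the gap between libraries are given as descriptions. A Cfap45 UMI was in 4.82% of type I cells (3.79 to 6.03%) and 65.2% of type II cells (59.4 to 70.8%), with 0.826% in vestibular macrophages. Cfap52, its neighbour inside the B-tubule, went the same way, at 153, 121, 81.7 and 85.2 CPM (type I) and 485, 461, 312 and 309.98 CPM (type II) (-1.77 ± 0.20, adjusted p = 2.2e-07). Cfap77, another lumen protein, was at 127, 97.3, 89.2 and 86.1 CPM (type I) and 172, 175, 194 and 135 CPM (type II) (-0.71 ± 0.17, adjusted p = 0.003), and with the mixed clusters kept its difference was gone (0.04 on the log2 scale, edgeR adjusted p = 0.88). Its call was also lost with thinned cells (-0.59) and without replicate 3 (-0.66). Cfap410, which is not an axonemal subunit, was also lower in type I (-0.89 ± 0.28, adjusted p = 0.024). The call for Cfap410 was lost without replicate 1 (-0.76), 3 (-0.99) or 5 (-0.83) and with the mixed clusters kept (-0.33), and replicate 1 held its highest type II value.

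Other lumen proteins went the opposite way. Cfap161 was at 475, 390.2, 353 and 405 CPM (type I) and 166, 94.96, 66.02 and 93.9 CPM (type II), with no overlap, 4.25-fold higher in type I (2.09 ± 0.19, adjusted p = 1.2e-08). Cfap126, also called Flattop, was at 559, 569, 474 and 479.9 CPM (type I) and 319, 282, 242 and 225 CPM (type II), 2.06-fold higher (1.04 ± 0.16, adjusted p = 1.9e-05). The group of doublet lumen proteins and tektins held 2 members higher and 3 lower of 10 tested, where 8% and 9.51% of all genes tested were. Tekt1 (-0.04 ± 0.14, adjusted p = 0.91), Tekt2 (0.11 ± 0.18, adjusted p = 0.79) and Tekt4 (-0.07 ± 0.23, adjusted p = 0.9) did not pass the threshold. The 95% interval of the difference was -0.32 to 0.23 for Tekt1, -0.24 to 0.46 for Tekt2 and -0.53 to 0.38 for Tekt4.

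In the dynein arms, Dnah8 was 8.71-fold higher in type I (3.12 ± 0.43, adjusted p = 5.6e-06) and Dnah10 2.74-fold higher (1.46 ± 0.36, adjusted p = 0.0044). Both had no overlap between the types, where 7.94% of all genes tested were apart in this direction. Both passed the count filter only through type I, so their p-values and gaps are given as descriptions. The Dnah10 call was lost without replicate 3 (1.11). Dnaic1 was higher too (0.80 ± 0.19, adjusted p = 0.0038), whereas Dnaic2 had a difference of -0.23 ± 0.18, adjusted p = 0.49. The other outer arm chains tested were not called, at -0.45 ± 0.17, adjusted p = 0.071 for Dnah5, 0.16 ± 0.19, adjusted p = 0.67 for Dnah11 and 0.25 ± 0.22, adjusted p = 0.56 for Dnah9. With the library as a block, edgeR called Dnah5 lower (-0.44, adjusted p = 0.0015). Of the spokes, 4 of 7 tested were higher in type I and 0 lower, where 8% and 9.51% of all genes tested were. The 4 were Rsph4a (1.56 ± 0.19, adjusted p = 1.2e-06), Rsph10b (1.02 ± 0.30, adjusted p = 0.02), Rsph1 (0.58 ± 0.15, adjusted p = 0.006) and Cfap206 (0.57 ± 0.15, adjusted p = 0.0094). Exons of Rsph10b overlap those of Pms2, as stated above, so its counts are uncertain. The remaining calls were Cfap299 (1.03 ± 0.20, adjusted p = 4.5e-04), Cfap47 (0.82 ± 0.19, adjusted p = 0.0027), Cfap43 (0.65 ± 0.16, adjusted p = 0.0052) and Cfap46 (0.48 ± 0.16, adjusted p = 0.04). Without replicate 3 the calls of Rsph1 (0.56), Cfap206 (0.50), Cfap43 (0.63) and Cfap46 (0.56) were lost, and without replicate 5 those of Rsph1 (0.54), Cfap43 (0.57) and Cfap46 (0.52). The Cfap46 call was also lost without replicate 1 (0.45) or 4 (0.40). With cells thinned to 1000 UMIs the edgeR calls of Rsph1 (0.17, adjusted p = 0.67), Cfap299 (0.83, adjusted p = 0.15) and Cfap46 (0.52, adjusted p = 0.18) were lost. The Cfap46 call was also lost without the sub-clusters tied on markers (0.44, edgeR adjusted p = 0.12). All 5 members of the nexin-dynein regulatory complex and ruler group were tested and none was called, where 17.5% of all genes tested were. Their differences ran from 0.28 for Ccdc39 to 0.53 for Ccdc40. With the library as a block, edgeR called Drc1 (0.40, adjusted p = 0.0031) and Ccdc40 (0.54, adjusted p = 7.8e-04) higher in type I.

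**Figure D3:**
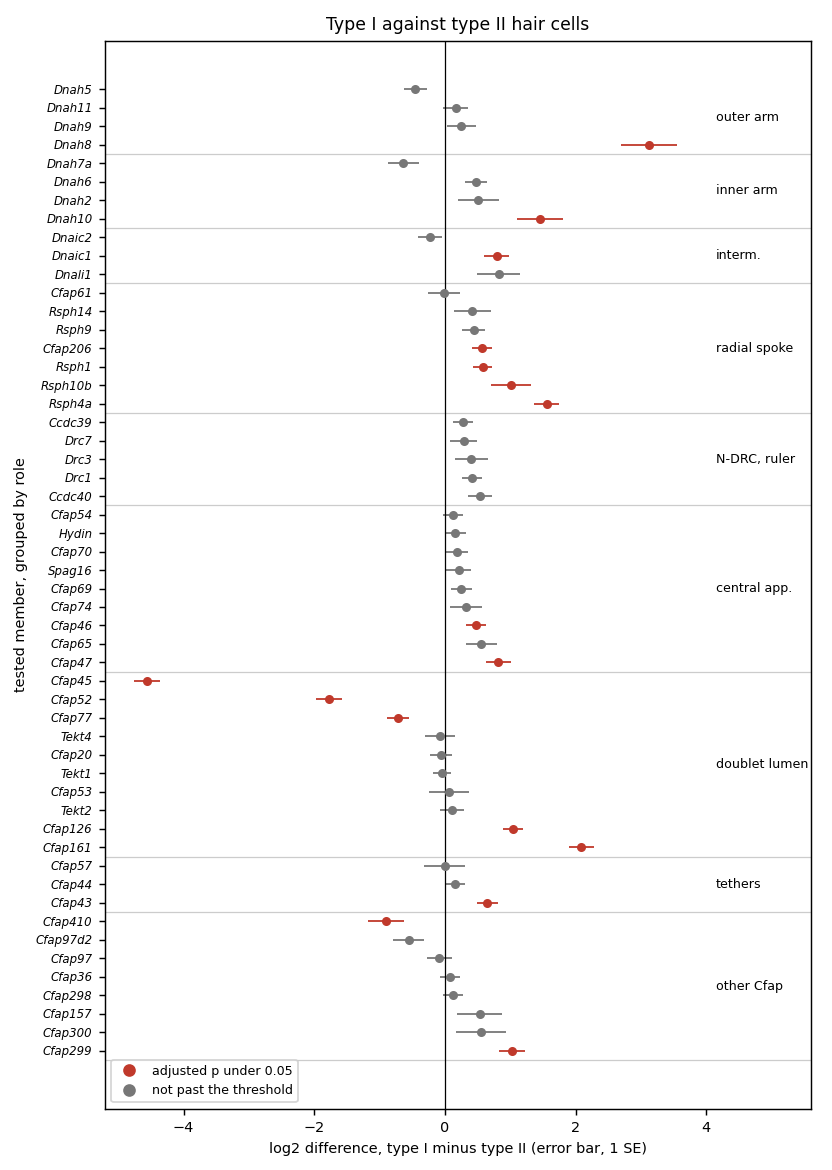
Log2 difference (type I minus type II, x axis, bars 1 SE) of the 53 tested members, grouped by role on the y axis, with 4 libraries per type. Red points, 13 to the right and 4 to the left of 0, had an adjusted p under 0.05, and Cfap45 lies farthest left and Dnah8 farthest right.

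Within the types, members varied between sub-clusters in ways that the type means hide. Type I cells fell into 5 sub-clusters of 579, 368, 259, 225 and 64 cells and type II cells into 2 of 219 and 63. The third type I sub-cluster was led by genes that include Ocm and Calb1, known from the central zones of the vestibular epithelia. The values below are descriptions with no test, and cells of the fourth sub-cluster were shallow, with a median UMI count of 1576 against 4211, 4444.5 and 3844 in the first 3. Dnah8 was at 0, 2.46, 3.80 and 5.04 CPM in the second sub-cluster, against 10.5, 44.97, 53.3 and 65.3 CPM in the first and 89.6, 82.3, 82.5 and 113 CPM in the third. Its type I level was therefore a mean of sub-clusters near 0 and of others far above it. Dnah10 was at 0, 0, 0 and 4.17 CPM in the third sub-cluster and 49.1, 26.4, 48.1 and 32.7 CPM in the first. Tekt2 was at 22.4, 43.2, 9.71 and 16.7 CPM in the third and 242, 250.3, 187 and 171 CPM in the first, and Cfap46 at 112, 98.8, 97.1 and 108 against 323, 242, 302 and 344 CPM. These genes and the pair of sub-clusters were chosen after the sub-clusters were seen, so the counts that follow are descriptions. Dnah10, with 1 UMI in the third sub-cluster, passed the count filter only through the first. Over the 49 members that passed the count filter in these sub-clusters, 9 had every library of the third below every library of the first, and 3 had every library above, against 6.78% and 7.83% of all genes. The summed level of the members moved less, at 6531 to 7341 CPM in the third and 7440.2 to 9048 CPM in the first. In type II cells, Cfap45 was at 366, 473, 554 and 534 CPM in the second sub-cluster and 214, 359, 249.7 and 273 CPM in the first, each above all type I sub-clusters.

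**Figure D4:**
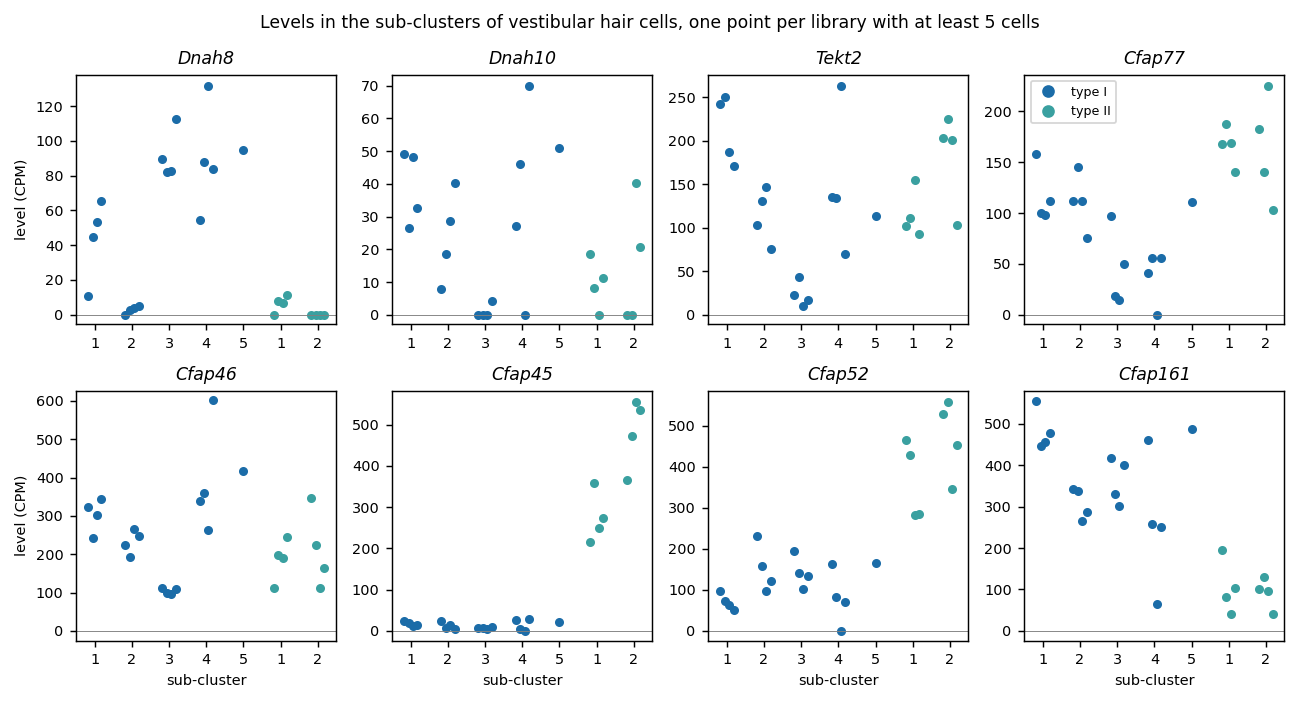
Levels in CPM of 8 members in 5 type I and 2 type II sub-clusters of vHCs, with 1 point per library holding at least 5 cells of the sub-cluster. Dnah8 is near 0 in the second type I sub-cluster, Dnah10, Tekt2 and Cfap46 are low in the third, and Cfap45 and Cfap52 are highest in the 2 type II sub-clusters.

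Supporting cells of the mouse vestibular epithelium carry at most a short primary cilium, which lacks dynein arms. Against them, vHCs were higher for 51 of 54 members that passed the filter and lower for 0, where 58.6% of 9267 genes tested were called, 29.2% higher and 29.4% lower. Here 42 of the 54 passed only through their level in HCs and so had to differ, and the count is given as a description. With no filter, 56 of 73 members with any UMI were higher and 0 lower, against 21.5% of all genes higher. The largest log2 differences, vHC minus supporting cell, were those of Cfap157 (0 UMIs in supporting cells, at least 14.5-fold), Dnah8 (5.79 ± 0.67, adjusted p = 3.7e-08), Ccdc39 (5.42 ± 0.27, adjusted p = 7.0e-15), Spag16 (5.18 ± 0.39, adjusted p = 1.4e-11) and Cfap57 (5.15 ± 0.66, adjusted p = 2.2e-07). Cfap20, Cfap97 and Cfap410 did not pass the threshold. A group of members kept a level in supporting cells that macrophages did not share. Rsph9 was at 57.9 CPM, Dnaic1 at 46.3 CPM, Dnah11 at 35.3 CPM and Cfap54 at 32.6 CPM over the pooled supporting cells, against 3.13, 1.25, 5.00 and 1.25 CPM in macrophages.

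In the cochlea, 44.1% of 5376 genes tested differed between cHCs and supporting cells, 19.6% being higher in cHCs. Only Cfap20, Cfap36, Cfap97 and Cfap298 passed the filter, and Cfap36 alone was called (0.66 ± 0.26, adjusted p = 0.045, log2 difference cHC minus supporting cell). Cfap36 was at 150.3, 175, 257 and 125 CPM in cHCs and 87.1, 92.2, 115 and 105 CPM in supporting cells, and its call was kept in 7 of 13 alternative fits and lost without replicate 3 (0.60) or 4 (0.53), with an adjusted p of 0.0044 to 0.22. Without a filter, 15 members were higher and 1 lower in cHCs, against 10.8% and 13.8% of all genes. Cfap44 (35 UMIs in cHCs, 0 in supporting cells), Ccdc39 (17 and 0), Cfap206 (25 and 3) and Rsph1 (55 and 18) were among the higher. The lower one was Drc1, at 54.5, 37.9, 48.5 and 17.6 CPM in cochlear supporting cells against 0, 8.75, 9.52 and 7.82 CPM in cHCs. In vestibular supporting cells Drc1 was at 5.44, 12.3, 11.1 and 0 CPM.

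The vestibular libraries also held 108 multiciliated cells, of which 104 were in replicate 3, and these give a reference for a motile axoneme. They were named from markers such as Sntn, Tmem212 and Deup1. Those markers were at or near 0 in vHCs, with 1, 2 and 0 UMIs in type I cells, and the markers other than Foxj1 summed to 0 to 11.004 CPM per library in type I and type II cells against 1961 to 2511 CPM in multiciliated cells. Within replicate 3, 64 of 74 members were at 10 CPM or more in multiciliated cells and 58 in vHCs, and 57 were in both. This is 1 library with no replicate, so ratios below carry counting error only. The ratio of multiciliated cells to vHCs had a 95% interval above 1 for 46 members and below 1 for 10. Such intervals were not computed over all genes, so these counts show nothing particular to the members. The ratios are of CPM with no further size factor.

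Dnah12, Dnah3, Spag17, Cfap100, Dnah1 and Cfap221 were present in multiciliated cells and at or under 5 CPM in vHCs of the same library. Dnah12, an inner arm heavy chain, was at 609 CPM in multiciliated cells and had 3 UMIs in vHCs, a ratio of 739.97-fold (95% interval 251 to 3605). Dnah3, of the same family, was at 235 CPM with 2 UMIs in vHCs, and Spag17 at 205 CPM with 3 UMIs. Cfap100, an inner arm modifier, was higher by 40.9-fold (95% interval 22.2 to 82.4) and Dnah1 by 31.2-fold (95% interval 15.1 to 72.5). These 6 are all the members at 10 CPM or more in multiciliated cells and under 5 CPM in vHCs. Dnah5 was 4.08-fold (95% interval 3.64 to 4.56) and Dnali1 13.2-fold (95% interval 10.2 to 17.3) of the vHC level.

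The 10 members whose interval lay below 1, and which were therefore higher in vHCs of this library, were Ccdc39, Cfap43, Cfap46, Cfap47, Cfap52, Cfap69, Cfap161, Drc1, Tekt2 and Tekt3. Tekt2 stood at 153 CPM in vHCs and 45.97 CPM in multiciliated cells, and Cfap161 at 336 and 141 CPM. Tekt3, a tektin known from sperm and cilia, had 43 UMIs in vHCs and 0 in multiciliated cells, where 0 allows up to 4.93 CPM. Tekt3 was at 6.17, 11.4, 18.7 and 8.52 CPM (type I) and 12.8, 13.4, 18.3 and 15.7 CPM (type II).

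**Figure D5:**
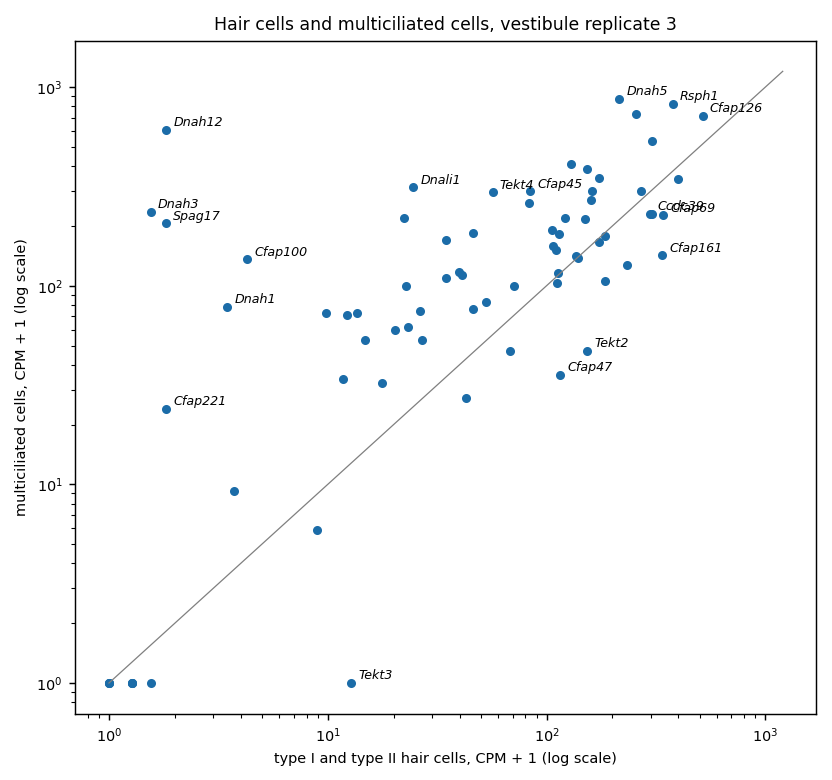
Level of each member in multiciliated cells (y axis) against type I and type II HCs together (x axis) of vestibule replicate 3, both as CPM + 1 on log axes, with the line of equal levels in grey. Dnah12, Dnah3, Spag17, Cfap100 and Dnah1 lie far above the line at the left edge, and Tekt3, Tekt2, Cfap47 and Cfap161 lie below it.

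Other genes of cilia, outside the naming rule, were read from lists of their roles. Between vHCs and cHCs, 17.7% of all genes tested were higher, and the list counts here are also out of the genes tested. Higher in vHCs were 27 of 28 other axonemal subunits and 9 of 10 factors that assemble dynein arms in the cytoplasm. So were 4 of 4 outer arm docking proteins, 11 of 17 genes of intraflagellar transport complex B and 5 of 6 of complex A. No gene of these lists was lower. The BBSome had 3 of 9 higher, cilium motors 5 of 8 higher and 1 lower, and tubulins 3 of 7 higher and 2 lower. Genes near 0 in either group, such as Armc4, Zmynd10, Foxj1 and Tuba8, passed the count filter only through the other group and so had to differ. These counts and the p-values of such genes are given as descriptions. Means below are ± SD over 4 libraries (3 for inner HCs). Dynlrb2, a dynein light chain, was at 396 ± 30.5 CPM in type I, 297 ± 85.8 in type II, 3.55 ± 6.15 in inner and 34.9 ± 21.6 in outer HCs. Enkur, a doublet protein, was at 333 ± 35.6 CPM in type I, 366 ± 43.7 in type II, 15.5 ± 5.01 in inner and 17.5 ± 15.3 in outer HCs. Armc4, a docking factor, was at 258 ± 15.2 CPM in type I, 177 ± 27.6 in type II, 0.887 ± 1.54 in inner and 0 ± 0 in outer HCs and was higher in vHCs than in cHCs by a log2 difference of 7.35 ± 0.50, adjusted p = 5.3e-10. Among assembly factors Zmynd10 was at 85.7 ± 18.1 CPM in type I, 90.5 ± 21.4 in type II, 0.887 ± 1.54 in inner and 0 ± 0 in outer HCs. Ttc21a, of complex A, was at 379.7 ± 155 CPM in type I, 324 ± 86.8 in type II, 3.55 ± 6.15 in inner and 0 ± 0 in outer HCs, and Ift74, of complex B, at 412 ± 104 CPM in type I, 301 ± 60.6 in type II, 63.9 ± 39.2 in inner and 14.5 ± 17.96 in outer HCs. Ift20, which also serves the Golgi, was at 220.3 ± 13.98 CPM in type I, 214 ± 47.1 in type II, 231 ± 79.4 in inner and 149 ± 77.7 in outer HCs.

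Some of these genes went the other way. Kifap3, a subunit of the kinesin that carries cargo along cilia, was at 232 ± 48.3 CPM in type I, 319 ± 47.8 in type II, 824 ± 79.1 in inner and 111 ± 36.2 in outer HCs. It was lower in vHCs than in cHCs summed (-1.14 ± 0.32, adjusted p = 0.0095), but only the mean of inner HCs was above vHCs. Outer HCs had a mean below both vHC types, and inner HCs held 533944 of the 762981 UMIs of cHCs. Tuba8, an alpha tubulin, was at 0.375 ± 0.750 CPM in type I, 0 ± 0 in type II, 119 ± 16.4 in inner and 115 ± 54.2 in outer HCs (-8.27 ± 0.47, adjusted p = 3.9e-11). Of the regulators, Foxj1, the factor that commits cells to motile cilia, was at 129.99 ± 17.5 CPM in type I, 134 ± 47.7 in type II, 1.77 ± 3.07 in inner and 0 ± 0 in outer HCs (5.50 ± 0.51, adjusted p = 2.8e-08), and Rfx3, an X-box factor, at 101 ± 14.9 CPM in type I, 112 ± 10.9 in type II, 16.6 ± 14.4 in inner and 51.3 ± 17.03 in outer HCs (1.70 ± 0.31, adjusted p = 1.7e-04). Of the genes of multiciliation, type I cells held 3 UMIs of Mcidas, 0 of Deup1 and 28 of Ccno (4.66 CPM, against 71.5 CPM in multiciliated cells), and type II cells held 3 of Ccno (2.11 CPM), whereas Foxj1 was at 483 CPM in multiciliated cells.

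Between type I and type II cells 9 genes of the lists were called higher and 4 lower, where 8% of all genes tested were higher and 9.51% lower. These calls are given as a description. Of the genes tested, those called higher in type I were 3 of 31 other axonemal subunits (Dynlrb2, Ccdc65 and Mns1), 1 of 4 docking proteins (Armc4, 0.58 ± 0.16, adjusted p = 0.011) and 2 of 7 motors (Kif3a and Wdr60). The rest were 1 of 11 assembly factors (Ccdc103, 0.75 ± 0.26, adjusted p = 0.044), 1 of 10 BBSome genes (Bbs9, 1.07 ± 0.34, adjusted p = 0.031) and 1 of 6 tubulins (Tubb2a, 1.93 ± 0.37, adjusted p = 3.7e-04). Lower in type I were Ccdc113 (-1.41 ± 0.34, adjusted p = 0.0038), Ropn1l (-1.16 ± 0.35, adjusted p = 0.023), Dnaaf3 (-0.91 ± 0.29, adjusted p = 0.032) and Ift122 (-0.54 ± 0.18, adjusted p = 0.034). None of the 17 complex B genes and 5 regulators that were tested was called, where 17.5% of all genes tested were.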

How the data were processed

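The deposited files hold raw UMI counts per gene and barcode, which the authors made with Cell Ranger from 10x 3′ libraries and the mm10 mouse reference. The file headers name version 5.0.1 for replicates 1 and 2 and 6.1.2 for replicates 3, 4 and 5, and this difference moves with replicate, not with cell type. Replicate 2 repeated replicate 1 and was left out. Cells were kept at a minimum of 200 genes and 1000 UMIs, with mitochondrial UMIs under 25%. Libraries of an organ were merged without integration in Seurat 5.3.0 (2000 variable genes without members and listed cilia genes, 30 principal components, resolution 1, hair cells again at 0.5), and no doublet caller was run. Classes were named from fixed markers. The rule that set hair cell clusters aside as mixed was set after the clusters were seen.

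UMIs were summed per library and class and tested with edgeR 4.0.16 (TMM, filterByExpr, quasi-likelihood test, Benjamini-Hochberg over all genes tested, threshold 0.05, R 4.3.3). Each class had to hold at least 5 cells in a library. Alternatives were DESeq2 1.42.0, RLE size factors, no count filter, the replicate block, each replicate left out, the mean of replicates 1 and 2, under 10% mitochondrial UMIs, mixed clusters kept, cilia genes used in clustering, resolution 0.5 and cells thinned to 1000 UMIs, and, chosen after the data were seen, sub-clusters tied on markers left out. On simulated counts at the real depths, 98.4% to 100% of genes changed by 2 on the log2 scale were recovered, and 1.98% to 9.68% of calls were of unchanged genes, over 5% in 3 of 5 comparisons. The changed genes were a small random set, moved in both directions around a mean common to both groups. Libraries were drawn independently. In the data more genes were called, classes shared libraries and many members were at 0 in a group, so these rates need not carry over. Cell types compared within an organ came from the same library and hence the same mice, which pairs them. Libraries are pools of mice, so p-values measure the spread between pools.

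The members and lists were chosen with earlier results of these data known. Members given by library were Ccdc39, Ccdc40, up to 4 of each role with the highest mean level over the 4 hair cell types, and up to 5 called members with the largest change in each direction and comparison. Cfap100, Cfap221, Dnah1, Dnah3, Dnah12, Spag17, Tekt3 and the other members that this rule does not give were named after their values were seen.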

Additional observations from a re-analysis of the deposited data

Results flagged for a closer look

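Among 86 groups of 4 libraries (named members by cell class), 4 held a library that stood apart from the other 3 by Dixon's test, and chance flags about 1 in 20 groups. Cfap157 in type I cells was at 41.7 CPM in replicate 1 and 20.2 to 23.7 CPM in the others. In type II cells, Cfap410 was at 95.8 CPM in replicate 1 against 40.1 to 44.0 CPM, and Tekt4 at 89.4 CPM in replicate 1 against 50.4 to 56.4 CPM. Replicate 1 held 156554 UMIs of type II cells, the fewest of the 4 libraries. Cfap36 in type II cells was at 282 CPM in replicate 4 against 331.9 to 337 CPM.

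The mixed hair cell clusters of the vestibule were left out of the main comparisons and entered a fit in an alternative that keeps them. Their summed level of the members was 3919 CPM in the lowest library, against 704 to 936 CPM in supporting cells. It lay below the 6958 CPM of the lowest type II library.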

How the results depend on the processing

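Against cHCs, 49 members were higher in vHCs, 32 of 33 tested with cells thinned to 1000 UMIs (17.2% of all genes higher) and 45 to 51 with 1 replicate left out (13.5% to 18.6%). The replicate numbers were not shown to pair the organs (correlations of 0.072, 0.075, 0.117 and 0.044), and with the replicate block the count was 49. Between type I and type II cells, 13 members were higher and 4 lower. Keeping the mixed clusters gave 41 and 2, with Cfap77 turned to 0.043 on the log2 scale, thinning gave 7 and 2 of 35 tested, and leaving out 1 replicate gave 7 to 15 and 2 to 5. Leaving out the sub-clusters tied on markers, an alternative chosen after seeing the data, gave 16 and 4. The replicate block, here the library, gave 18 and 7 and left the counts of the other comparisons as they were. Between inner and outer HCs no member was called except without a count filter, which gave 3 higher and 1 lower. For cHCs against supporting cells the 1 call higher became 0 with DESeq2, RLE size factors or the mean of replicates 1 and 2, and 15, with 1 lower, without a filter. Leaving out 1 replicate gave 0 to 3 higher and 0 to 1 lower. For vHCs against supporting cells, 51 of 54 tested were higher (29.2% of all genes), and 34 of 36 with cells thinned (30.1%). The count was 47 of 50 under the 10% mitochondrial limit (28.4%) and 49 to 52 with 1 replicate left out (24.1% to 29.5%). The causes were not tested. Thinning could not be run for either cochlear comparison, nor the 10% mitochondrial limit for inner against outer HCs, since no member passed the count filter there. Depth limits outer HCs most, where 229037 UMIs bound a member with no UMI at 13.1 CPM.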
